A study of Mus musculus with 19 samples.

Results

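The question addressed here is whether deletion of EZH2 from neurons changed how hippocampal transcripts responded to kainate. It was put to every measured gene as an interaction, the kainate change in the neuronal knockout (EZH2nHom kainate minus EZH2nHom saline) minus the kainate change in the wild type (WT kainate minus WT saline), on the log2 scale. All 19 libraries of the study entered, and the members are the 19234 of 55416 genes in the deposited count table that passed a filter on low counts. A positive interaction means that a transcript was changed more upward, or less downward, by kainate in EZH2nHom. The WT group was EZH2(+/+);Syn1Cre(+/-), so it carried the Cre recombinase too. The EZH2nHom group was EZH2(-/-);Syn1Cre(+/-), with both floxed EZH2 alleles exposed to Cre under the Synapsin1 promoter, a driver active in neurons, so glia and vessels were not targeted. All mice were on the C57BL6 background, and neither age nor sex is given in the labels. Mice received saline intraperitoneally or repeated low doses of kainate until status epilepticus, and tissue was taken on day 4. The sample labels give R. Hippocampus as the tissue, whereas the study's design text speaks of whole hippocampi. EZH2nHom was represented by 5 libraries after saline and 4 after kainate and WT by 5 and 5, all of total RNA depleted of cytoplasmic and mitochondrial ribosomal RNA. The labels number the samples of a group without stating that each came from its own mouse, so the p-values measure the spread between these samples.

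EZH2 is the catalytic subunit of Polycomb repressive complex PRC2, which methylates histone H3 at a lysine that marks silenced chromatin. In neurons PRC2 is known for keeping developmental and non-neuronal genes off. Kainate activates a class of ionotropic glutamate receptors, and the prolonged seizures it causes are followed by loss of vulnerable neurons, proliferation and activation of microglia, reactive astrocytes and induction of interferon-stimulated genes. Bulk tissue mixes neurons, where the deletion took place, with glia, blood cells and vessels. Fewer cells of a type and less RNA per cell cannot be told apart in such libraries.

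Total reads per library ran from 24496685 to 43948317. All 9 markers of hippocampal tissue were read in every library, among them Prox1 of dentate granule cells at 62.3 to 129 CPM (read counts scaled to library size). EZH2nHom kainate replicate 2 stood apart from the others on the second principal component of log2 CPM, and limma's sample weight for it was 0.0872 against 0.325 to 4.05 elsewhere. The WT kainate libraries were not uniform either: replicates 3 and 4 had larger responses in most glial lists than replicates 1, 2 and 5. After saline, reads of Y-linked genes were present in 5 of 5 EZH2nHom and 3 of 5 WT libraries, and after kainate in 3 of 4 and 3 of 5. Sample code prefixes, whose meaning is not given, were never shared between the genotypes, so genotype and prefix cannot be told apart. Within EZH2nHom 0 prefixes occurred in both arms, while 6 WT libraries had a prefix found in both WT arms. Kainate and prefix therefore cannot be told apart in EZH2nHom, and this limit carries over to the interaction. Structural RNAs, which ribosomal depletion and RNA quality affect, held 0.0507 to 0.0764% of reads in WT saline, 0.0597 to 0.194% in WT kainate, 0.168 to 0.694% in EZH2nHom saline and 0.13 to 0.699% in EZH2nHom kainate.

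The targeted gene showed no detectable interaction. Ezh2 was at 11, 12.9, 11.5, 11.2 and 9.61 CPM in WT saline and 10.8, 13.2, 19.8, 20.3 and 11.8 in WT kainate. The EZH2nHom libraries read 15.5, 14.3, 11.8, 13.7 and 12.7 CPM after saline and 16.7, 19.6, 14.6 and 19.4 after kainate. All 4 EZH2nHom kainate libraries lay above the 5 WT saline libraries, and every other pair of groups overlapped. The interaction was -0.06 ± 0.23 (log2 ± SE, 95% interval -0.54 to 0.42, adjusted p = 0.948 by edgeR's quasi-likelihood test with Benjamini-Hochberg adjustment). EZH2nHom minus WT was 0.27 ± 0.16 after saline (adjusted p = 0.288) and 0.21 ± 0.17 after kainate (adjusted p = 0.473). The count adds reads over the whole gene and over all cell types, and the labels do not say which exons the floxed alleles remove, so it does not check the genotype labels. Its sign also turned under some alternatives, so no direction is given.

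No gene passed for the interaction. Of 19234 genes, 0 (0%) had an adjusted p under 0.05, and the smallest adjusted p was 0.128. At an unadjusted p under 0.05 there were 1685 genes (8.76%), of which 710 (3.69%) had a more positive and 975 (5.07%) a more negative kainate change in EZH2nHom. The same fit called 2316 genes (12%) for kainate in WT and 5012 (26.1%) for kainate in EZH2nHom, but those counts differ without any tested difference between the responses. Between the genotypes it called 2596 genes (13.5%) after saline, 8.33% higher and 5.16% lower in EZH2nHom, and 1463 genes (7.61%) after kainate, 4.56% higher and 3.04% lower. For 11882 genes (61.8%) the 95% interval of the interaction lay within 1 log2 unit of 0, that is, a difference of up to 2-fold between the responses. The median SE was 0.25 over all genes and 0.175 over the 11754 genes that averaged above 5 CPM. Differences of that size, and others several times as large, were not detectable. The interactions of Tomm6 and Lars2, described below, were several SE from 0 and did not pass. Interactions were spread around 0, with 9211 genes above, 10023 below and a median of -0.02. With the replicate number as a block within genotype, 1 gene passed (D830030K20Rik).

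DESeq2's Wald test, run on the same counts as an alternative, called 12 of 10648 genes (0.113%), 3 with a positive interaction (Lars2, Smoc2 and Dennd2a) and 9 (0.0845%) with a negative one (Ctr9, Tomm6, Hs3st1, Dynlrb1, Tuba1a, Rufy1, Tecr, Ywhaq and Smc1a, the last a cohesin subunit named after its value was seen). In the edgeR fit Smc1a had an interaction of -0.35 (adjusted p = 0.408), and the others are described next with their edgeR values. The balance of higher to lower genes at the unadjusted threshold depended on scaling: it was 825 to 738 with DESeq2's size factors in the edgeR fit and 888 to 816 after a correction for GC content and length. It also depended on single libraries. Without WT kainate replicate 4 there were 1172 higher genes, without EZH2nHom kainate replicate 1 there were 1254 and without replicate 3 of that group 1220. Lower genes numbered 437 to 490 without any 1 of the 5 WT saline libraries, 447, 418 and 617 without WT kainate replicate 1, 2 or 3, and 1484 without EZH2nHom kainate replicate 2.

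**Figure D1:**
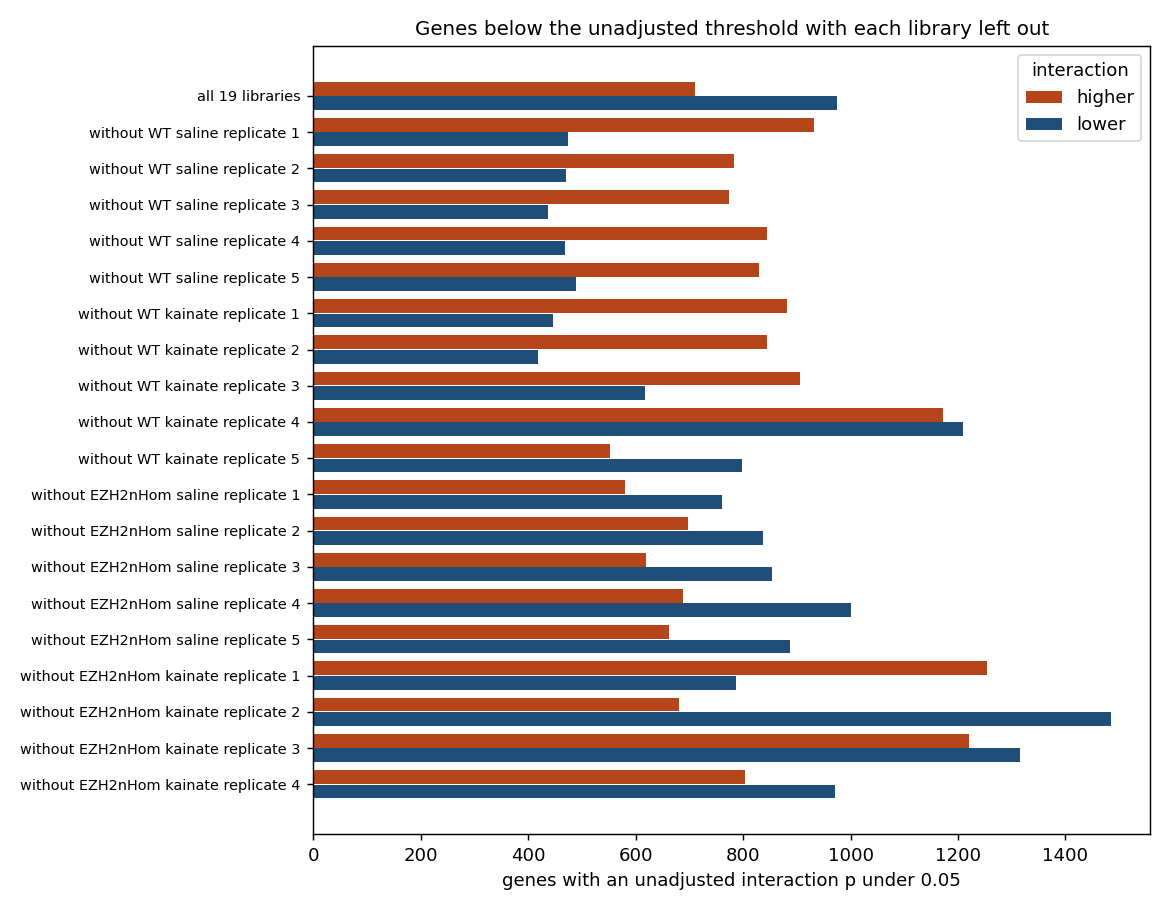
Number of genes (x axis) with an unadjusted interaction p under 0.05 in the fit to all 19 libraries (top) and with each library left out in turn; red bars are positive and blue bars negative interactions. The higher genes run from 553 to 1254 and the lower genes from 418 to 1484, so both counts move by more than 1.5 times with single libraries.

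Among the negative interactions with the lowest p, EZH2nHom saline was mostly the high group and kainate brought the level down toward or below WT. Tomm6, a small subunit of the mitochondrial outer membrane import channel, had the lowest p. Tomm6 was at 20.2, 19.3, 20.0, 21.9 and 20.6 CPM in WT saline and 21.6, 20.3, 23.9, 23.9 and 24.1 in WT kainate. EZH2nHom had 37.3, 39.3, 35.9, 41.4 and 40.3 CPM after saline and 27.6, 29.8, 25.1 and 28.8 after kainate. All 5 EZH2nHom saline libraries lay above every other library. Kainate lowered Tomm6 in EZH2nHom, with a log2 change of -0.48 ± 0.08 (adjusted p = 0.00018), against 0.16 ± 0.07 in WT (adjusted p = 0.19), and the interaction was -0.64 ± 0.11 (95% interval -0.86 to -0.42, adjusted p = 0.128). Of its 32-base words, 77.1% also occur in other annotated transcripts, mostly those of Gm21981, so reads may have been split or shared between them. Ctr9, a subunit of the PAF1 complex that travels with RNA polymerase II, had the same shape with little shared sequence (1.95%). Ctr9 was at 66.6, 67.4, 64.5, 60.3 and 63.2 CPM in WT saline and 66.2, 67.1, 63.5, 66.5 and 72.5 in WT kainate. Its values in EZH2nHom were 103, 98.2, 99.8, 96.3 and 96.1 CPM after saline and 73.9, 65.0, 74.8 and 76.0 after kainate. Again all 5 EZH2nHom saline libraries exceeded all others. The genotypes differed after saline by 0.62 ± 0.06 (adjusted p = 3.21e-06) and after kainate by 0.11 ± 0.06 (adjusted p = 0.31), which left an interaction of -0.51 ± 0.09 (95% interval -0.69 to -0.32, adjusted p = 0.128).

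Without EZH2nHom kainate replicate 2, Tomm6 and Ctr9 passed, with interactions of -0.67 (adjusted p = 0.0204) and -0.46 (adjusted p = 0.0334). The rest of the 10 genes with the lowest p in this direction had interactions of -0.58 ± 0.12 for Dynlrb1, a dynein light chain, -0.79 ± 0.17 for Hs3st1, a heparan sulfate sulfotransferase, and -0.55 ± 0.12 for Tecr, a reductase of very long chain fatty acid synthesis. They were -0.51 ± 0.12 for the alpha tubulin Tuba1a, -0.44 ± 0.10 for the endosomal protein Rufy1, -0.68 ± 0.16 for the synaptic scaffold Lin7a, -0.50 ± 0.12 for Jkamp and -0.50 ± 0.12 for Ywhaq. Their adjusted p was 0.408 in each case. Dynlrb1 lay at 119 to 155 CPM in EZH2nHom saline against 70.1 to 80.5 in WT saline, 82.8 to 95.5 in WT kainate and 89.8 to 114 in EZH2nHom kainate. Hs3st1 lay at 17.0 to 21.7 CPM in EZH2nHom saline, above the 10.6 to 14.5, 11.6 to 14.5 and 8.81 to 13.2 of the same 3 groups. In Lin7a, Jkamp and Ywhaq, kainate took EZH2nHom to or below the low end of WT kainate. The ranges were 13.6 to 18.6 CPM in EZH2nHom kainate against 18.5 to 25.3 in WT kainate for Lin7a. They were 27.1 to 34.2 against 33.2 to 38 for Jkamp and 184.6 to 255 against 246.5 to 301 for Ywhaq. Lin7a in EZH2nHom saline (27.2 to 37.2 CPM) overlapped WT saline (21.9 to 29.2), and Jkamp (36.3 to 46.9) overlapped WT kainate. Tuba1a had another shape. It rose with kainate in WT, from 852 to 938 to 1083 to 1441 CPM (log2 change 0.53 ± 0.08, adjusted p = 0.00029), and stood at 1291 to 1457 after saline and 1268 to 1480 after kainate in EZH2nHom, so that only WT saline was low. Tuba1a shares 78.4% of its 32-base words with other transcripts, mainly Tuba1c, and Ywhaq 32.1%, so their counts are uncertain. The direction of these 10 held with every library left out.

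**Figure D2:**
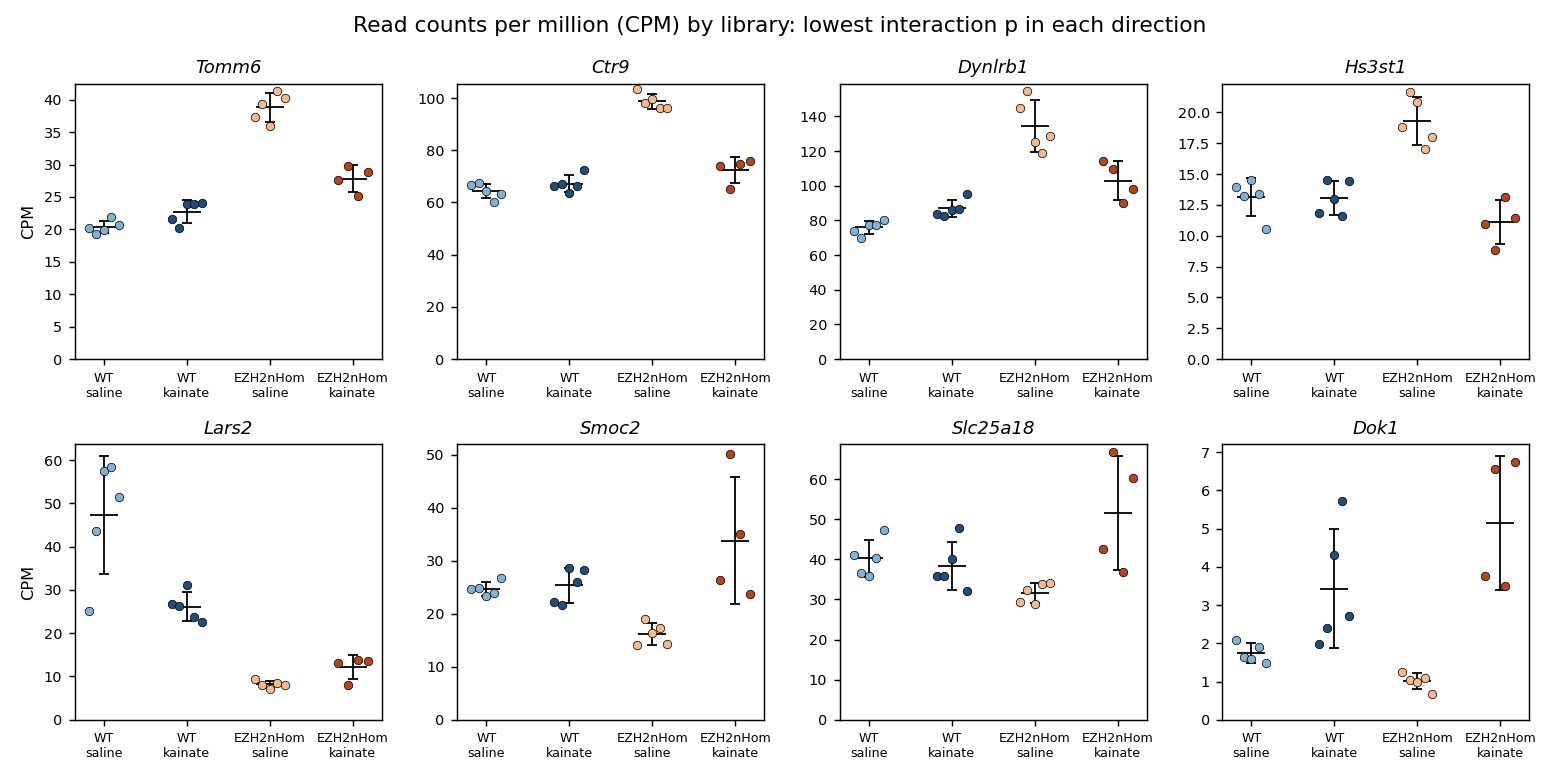
CPM (y axis, from 0) of 4 genes with negative (top row) and 4 with positive interactions (bottom row) in each of the 4 groups; points are libraries and bars the mean ± SD. In the top row EZH2nHom saline is the high group, while in the bottom row Smoc2, Slc25a18 and Dok1 have their lowest mean in EZH2nHom saline and Lars2 is low in both EZH2nHom groups.

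Lars2, the mitochondrial leucyl-tRNA synthetase, led the positive interactions. Lars2 was at 25.2, 43.7, 57.6, 58.4 and 51.5 CPM in WT saline and 26.7, 26.3, 31.2, 23.7 and 22.6 in WT kainate. In EZH2nHom the values were 9.37, 8.07, 7.20, 8.46 and 8.03 CPM after saline and 13.2, 8.07, 13.9 and 13.5 after kainate. Every EZH2nHom library was below every WT library. Kainate lowered Lars2 in WT, with a log2 change of -0.86 ± 0.18 (adjusted p = 0.00394), and raised it in EZH2nHom by 0.57 ± 0.20 (adjusted p = 0.0392). The interaction was 1.43 ± 0.27 (95% interval 0.87 to 1.99, adjusted p = 0.235). It passed without WT saline replicate 1, the library at 25.2 CPM (interaction 1.64, adjusted p = 0.00313), and without EZH2nHom kainate replicate 2 (1.57, adjusted p = 0.0334). With the structural RNA share of each library as a covariate it was 1.45 (adjusted p = 0.256). Whether RNA composition had a part in Lars2 was not tested beyond that covariate. ENSMUSG00000119584, a gene without a symbol given below, was also lower in EZH2nHom saline (42.9 to 78.4 CPM) than in every WT library. Within WT saline it too was lowest in replicate 1 (327 CPM). In EZH2nHom kainate replicate 2 the pair parted, with Lars2 the lowest of its group (8.07 CPM) and ENSMUSG00000119584 the highest (2450 CPM).

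Smoc2, a secreted matrix protein, rose with kainate in EZH2nHom and gave no detectable change in WT. Smoc2 was at 24.6, 24.9, 23.4, 23.9 and 26.8 CPM in WT saline and 22.2, 21.7, 28.6, 26.1 and 28.2 in WT kainate. In EZH2nHom it was at 14.1, 19.1, 16.3, 17.4 and 14.3 CPM after saline and 26.3, 50.2, 35.0 and 23.7 after kainate. EZH2nHom saline was below all other libraries, and EZH2nHom kainate overlapped both WT groups, with replicate 2 highest. The log2 kainate change was 1.06 ± 0.16 in EZH2nHom (adjusted p = 0.000136) against 0.04 ± 0.16 in WT (adjusted p = 0.923), and the interaction was 1.02 ± 0.23 (95% interval 0.55 to 1.5, adjusted p = 0.408). Slc25a18, a mitochondrial glutamate carrier of astrocytes, had an interaction of 0.77 ± 0.20, with 28.7 to 34.1 CPM in EZH2nHom saline, 36.9 to 66.7 in EZH2nHom kainate, 35.7 to 47.4 in WT saline and 32 to 47.9 in WT kainate. Dok1, an adaptor of tyrosine kinase signalling, rose in both genotypes, by 0.97 ± 0.27 in WT and 2.34 ± 0.30 in EZH2nHom, with an interaction of 1.38 ± 0.40. Psmb10, a catalytic subunit of the immunoproteasome, rose in EZH2nHom (1.15 ± 0.15, adjusted p = 2.93e-05) and narrowly missed the threshold in WT (0.43 ± 0.14, adjusted p = 0.0542), with an interaction of 0.73 ± 0.20. The Rab exchange factor Dennd2a (0.46 ± 0.12), the matrix phosphoprotein Dmp1 (0.87 ± 0.24), the PHD finger protein Phf7 (0.95 ± 0.27) and Ankrd10 (0.38 ± 0.11) made up the list with Xaf1, described with the interferon genes. Ankrd10 differed in shape: it fell in WT, with a log2 change of -0.38 ± 0.08 (adjusted p = 0.00241) and was at 0.00 ± 0.08 in EZH2nHom. Adjusted p for the interaction was 0.408 for Smoc2 and 0.428 to 0.439 for the others, and their directions held with every library left out.

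Of the 5 largest positive interactions under the naming rule, 4 rested on 1 library, and the fifth was that of Xaf1. Sphk1, a sphingosine kinase, read 1.48, 28.0, 1.85 and 1.90 CPM in EZH2nHom kainate replicates 1 to 4, against 0.913 to 2.24 in WT kainate, 0.654 to 1.42 in WT saline and 0.535 to 1.10 in EZH2nHom saline. The lipid droplet protein Plin4 read 3.99, 44.5, 3.81 and 3.93 CPM, the kinase Pim1 2.84, 37.1, 3.19 and 6.04 and the transcription factor Cebpd 7.99, 69.2, 6.84 and 21.6 in the same 4 libraries, with replicate 2 highest each time. Their interactions of 2.91 ± 0.95, 2.68 ± 0.90, 2.27 ± 0.78 and 2.11 ± 0.73 became 0.67, 0.84, 0.66 and 0.99 without that replicate. Pim1 and Cebpd share 11.3% and 14.2% of their 32-base words with other annotations. The 5 largest negative interactions were not set by 1 library. Cckbr, a cholecystokinin receptor, was at 4.25, 3.61, 3.89, 3.91 and 5.01 CPM in WT saline, 9.73, 6.75, 8.67, 3.06 and 3.33 in WT kainate, 5.63, 4.88, 7.85, 4.35 and 12.4 in EZH2nHom saline and 3.42, 2.13, 5.98 and 2.96 in EZH2nHom kainate. The groups overlapped, and the interaction was -1.56 ± 0.50 (95% interval -2.60 to -0.51). Ankrd34c followed with -1.35 ± 0.34, the forebrain transcription factor Foxp2 with -1.34 ± 0.38, the metalloprotease Adamts12 with -1.14 ± 0.40 and Slc17a6, the vesicular glutamate transporter of subcortical and a few hippocampal neurons, with -1.11 ± 0.29. Slc17a6 was 29.8 to 55.9 CPM in EZH2nHom saline, where replicate 4 alone did not exceed every library of the other groups, and it fell with kainate in that genotype (-0.92 ± 0.22, adjusted p = 0.00391). Over all leave-one-out fits these 5 interactions stayed between -1.91 and -0.93, with adjusted p of 0.133 or more. EZH2nHom saline replicate 5 was the highest library of its group for Cckbr, Ankrd34c, Foxp2 and Slc17a6 and the lowest for Adamts12. That library also had the highest score for genes of hypothalamus, amygdala and septum, given below.

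A further pair of genes passed with a library left out. D830030K20Rik, a predicted gene that shares 72.4% of its 32-base words with others such as Gm3033, had 1, 0, 2, 0 and 31 reads in EZH2nHom saline and 0.929 to 1.16 CPM in EZH2nHom kainate, against 1.0 to 2.40 in WT saline and 0.803 to 2.10 in WT kainate. Without EZH2nHom saline replicate 5, the library with 31 reads, the interaction was 5.41 and the adjusted p of its interaction was 0.00197, against 0.498 with it. With the replicate block within genotype it passed too (interaction 5.44, adjusted p = 0.0399). ENSMUSG00000119584, which the tables used here pair with no symbol, was at 327, 469, 499.7, 475 and 455 CPM in WT saline, 326, 354, 389.8, 304 and 354 in WT kainate, 51.7, 78.4, 42.9, 72.7 and 59.9 in EZH2nHom saline and 132, 2450, 189.7 and 252 in EZH2nHom kainate. EZH2nHom kainate replicate 2 was the highest library of all for it, and without that library the interaction was 2.01 (adjusted p = 0.00799) in place of 3.99 ± 0.84 (adjusted p = 0.408).

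**Figure D3:**
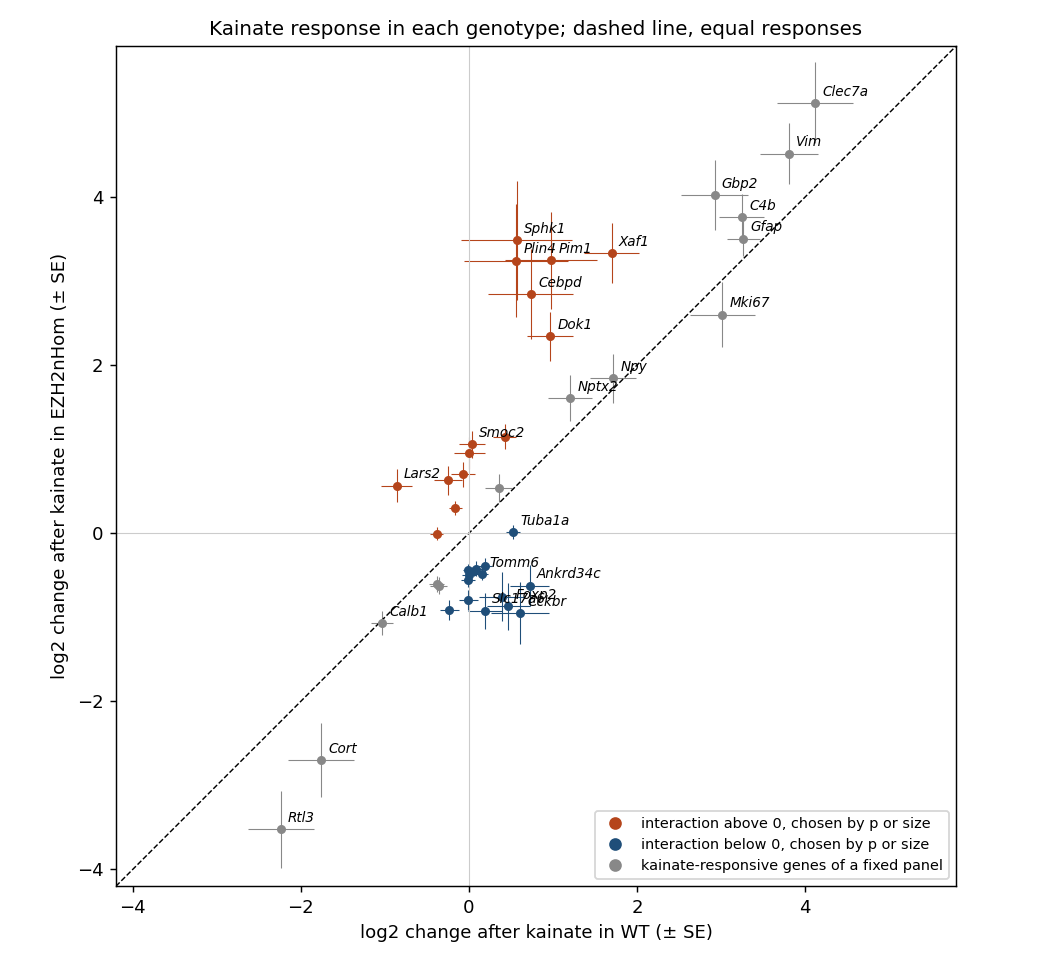
Log2 kainate change in EZH2nHom (y axis) against WT (x axis), with SE bars in both directions, for the genes with the lowest interaction p or the largest interaction (red above 0, blue below 0) and a panel of kainate-responsive genes (grey). The dashed line marks equal responses. The grey genes range from Rtl3 (-2.24 in WT, -3.52 in EZH2nHom) to Clec7a (4.12 and 5.12), the panel members Timp1, Cst7 and Tgm1 exceed the axes and are not drawn, and the coloured genes were chosen for their distance from the line or its p.

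Of a panel of 17 kainate-responsive genes, all but Bdnf passed for kainate in both genotypes (Bdnf missed in WT), and 0 passed for the interaction. The panel was chosen with earlier results of these data known, so passing for kainate is not independent evidence. The astrocyte filament gene Gfap rose from 350.3, 329, 330.2, 335 and 346 CPM in WT saline to 1916, 2865, 4381, 4423 and 2698 in WT kainate. In EZH2nHom it rose from 333, 358, 329.8, 342 and 259 to 3686, 2672, 3536 and 4842 CPM. The responses were 3.27 ± 0.20 and 3.51 ± 0.21, and the interaction of 0.24 ± 0.27 had an interval of -0.32 to 0.80. Calb1, the calcium buffer of granule and pyramidal cells, fell, with changes of -1.03 ± 0.13 in WT and -1.07 ± 0.14 in EZH2nHom, with an interval of the difference of -0.44 to 0.37. Intervals of the difference were -0.70 to 0.96 for the neuropeptide Npy, -0.29 to 0.67 for the neurotrophin Bdnf, -0.38 to 1.20 for the synaptic pentraxin Nptx2, -0.56 to 0.04 for the AMPA receptor subunit Gria2 and -0.49 to 0.06 for the metabotropic receptor Grm5. They were wider for others: -0.23 to 1.65 for Vim, -0.24 to 1.27 for the complement component C4b, -0.33 to 2.34 for the microglial receptor Clec7a, -1.51 to 0.68 for the proliferation marker Mki67 and -0.04 to 2.24 for the guanylate-binding protein Gbp2. The neuropeptide Cort had -2.14 to 0.27, and for Timp1 (-1.79 to 3.97), Cst7 (-3.29 to 3.77) and Tgm1 (-6.31 to 7.35) the data set almost no limit. Rtl3, a retrotransposon-derived gene, was the panel member with an interval that excluded 0: it fell, with changes of -2.24 ± 0.39 in WT and -3.52 ± 0.46 in EZH2nHom (interaction -1.28 ± 0.58, interval -2.49 to -0.07, adjusted p = 0.561).

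The type I interferon list had the highest median interaction of the 42 gene lists. Which interferon, if any, raised its members here was not tested. These genes encode antiviral effectors and their regulators and are switched on through STAT and IRF factors. All 34 measured members rose with kainate in WT (9.47% of all genes rose) and all 34 rose in EZH2nHom (14.3% of all genes), with median log2 changes of 2.78 and 3.85. The interaction was above 0 for 34 of 34, with a median of 0.97 against -0.02 over all genes, 6 were under the unadjusted p of 0.05 in the higher direction (3.69% of all genes) and 0 in the lower, and 0 passed. Xaf1, an interferon-induced antagonist of apoptosis inhibitors, had the lowest p of the list. Xaf1 was at 2.45, 3.33, 2.31, 2.48 and 1.90 CPM in WT saline and 4.61, 6.17, 9.62, 14.9 and 5.43 in WT kainate. The EZH2nHom libraries read 2.57, 1.61, 1.33, 1.76 and 1.64 CPM after saline and 19.3, 8.48, 14.1 and 30.6 after kainate. Its interaction was 1.64 ± 0.48 (95% interval 0.64 to 2.64, adjusted p = 0.439), and EZH2nHom exceeded WT after kainate by 1.16 ± 0.33 (adjusted p = 0.039). Isg15, a ubiquitin-like modifier, followed. Isg15 was at 0.548, 0.887, 0.654, 0.566 and 0.484 CPM in WT saline and 2.56, 3.13, 9.29, 15.4 and 3.33 in WT kainate. EZH2nHom had 0.352, 0.166, 0.355, 0.152 and 0.297 CPM after saline and 12.8, 2.53, 11.8 and 34.6 after kainate. EZH2nHom kainate replicate 2 was the lowest kainate library of both genotypes for Isg15. The interaction was 2.41 ± 0.90 (95% interval 0.52 to 4.30, adjusted p = 0.494). The transcription factors Stat2 and Irf1 had interactions of 0.71 ± 0.30 and 0.74 ± 0.32.

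Many interferon-induced genes are known to share a promoter motif, which is described here for this list. The list was made of such genes, so a high share with the motif is not independent evidence. The core searched was GAAANNGAAA on both strands, the interferon-stimulated response element that STAT and IRF factors bind, in RefSeq promoters of 250 bases before to 50 after the gene start (build GRCm38.p6). It was found for 16 of 25 list members with a promoter in the table (64%), for 485 of 12904 tested genes with one (3.76%) and in 3.44% of all promoters of that length. A window of 40 bases is given for 3 members named above, with the core or its reverse complement in capitals, on the strand of the gene.
Isg15: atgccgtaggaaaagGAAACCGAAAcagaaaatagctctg
Stat2: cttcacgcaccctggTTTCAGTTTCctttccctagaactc
Gbp2: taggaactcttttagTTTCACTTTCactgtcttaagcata
The windows are chr4:156200866-156200905 on the minus strand for Isg15, chr10:128270261-128270300 on the plus strand for Stat2 and chr3:142620589-142620628 on the plus strand for Gbp2. Between the end of the motif and the gene start lie 62, 212 and 49 bases. Isg15 holds 3 overlapping matches, of which the middle one is capitalised. A match is a description of the sequence and not evidence of binding in these mice.

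The list score, the mean log2 CPM of its members, showed how the libraries made this difference. It was 0.98, 1.18, 1.12, 1.07 and 0.77 in WT saline, 1.24, 0.98, 1.28, 0.85 and 0.88 in EZH2nHom saline, 2.36, 2.86, 4.14, 4.69 and 2.97 in WT kainate replicates 1 to 5 and 4.80, 3.24, 4.29 and 5.64 in EZH2nHom kainate replicates 1 to 4. Saline libraries of both genotypes were alike in range, and the kainate groups overlapped: WT kainate replicates 3 and 4 reached the level of EZH2nHom, and EZH2nHom kainate replicate 2 fell among the WT libraries. The median interaction was 0.52 without EZH2nHom kainate replicate 4 and 1.42 without WT kainate replicate 4, and 1 and 19 members were under the unadjusted threshold in those 2 fits. It was 11 members without WT kainate replicate 3, and 3 each without WT kainate replicate 5 or EZH2nHom saline replicate 4. Without EZH2nHom kainate replicate 2 the median was 1.18 with 15 such members. Among libraries with Y-linked reads alone the median was 0.48, and with limma's sample weights 1.73.

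Antigen presentation, the proteasome, transporter and class I molecules that display peptides to T cells, followed. Of 21 measured members, 19 rose in WT (9.47% of all genes) and 21 in EZH2nHom (14.3% of all genes). All 21 had an interaction above 0, and 7 were under the unadjusted threshold in the higher direction (3.69% of all genes), none in the lower. The median interaction was 0.79. Psmb8, an immunoproteasome subunit, was at 2.0, 1.77, 1.96, 2.26 and 1.59 CPM in WT saline, 3.94, 6.72, 12.2, 18.8 and 5.78 in WT kainate, 1.62, 2.03, 1.87, 1.76 and 1.52 in EZH2nHom saline and 18.3, 12, 16.1 and 40.8 in EZH2nHom kainate. All 4 EZH2nHom kainate values were above 3 of the 5 WT kainate values, and its interaction was 1.34 ± 0.52 (95% interval 0.24 to 2.43, adjusted p = 0.509). H2-Q4, a class I molecule of a family with closely related copies, had 1.37 ± 0.54, the transporter subunit Tap2 0.89 ± 0.35 and Psmb10 0.73 ± 0.20. The median ran from 0.47 without EZH2nHom kainate replicate 4 to 1.47 without WT kainate replicate 4, with 1 and 15 members under the threshold, and without EZH2nHom kainate replicate 2 there were 12. The response element was found for 3 of 16 promoters of this list (18.8%). JAK-STAT signalling genes had a median of 0.16 over 36, with 2 higher (Stat2 and Pim1) and 0 lower, and the median ran from 0.10 without EZH2nHom kainate replicate 2 to 0.27 without WT kainate replicate 3.

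**Figure D4:**
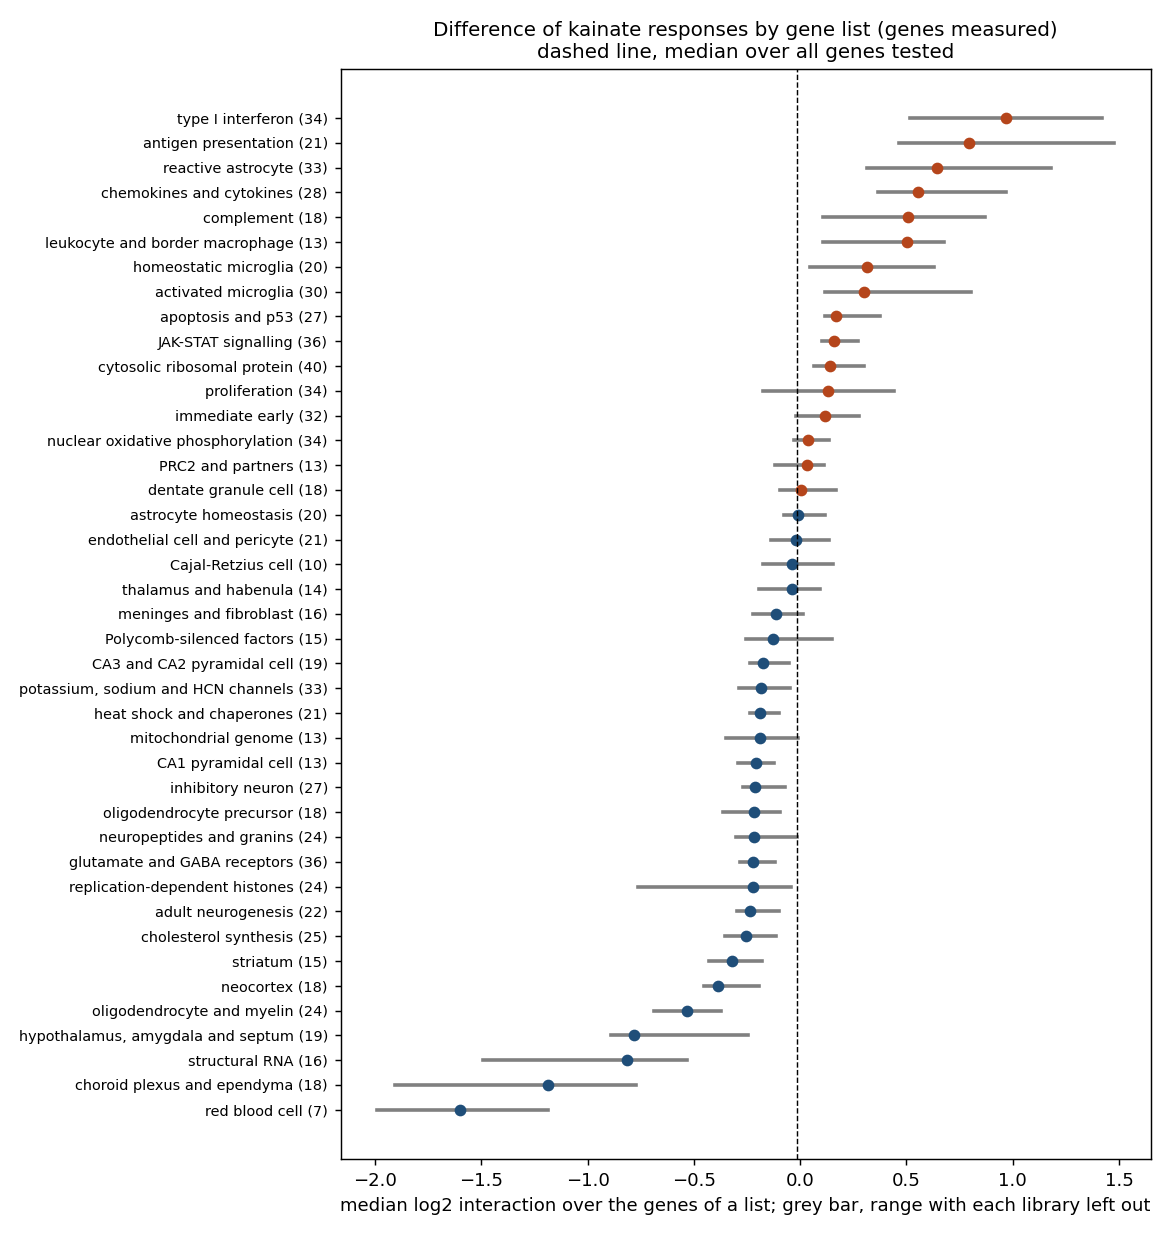
Median log2 interaction (x axis) of 41 gene lists, with the number of measured genes in parentheses; the grey bar is the range of that median with each library left out and the dashed line the median over all genes tested. Immune and reactive glial lists lie above 0, with type I interferon genes highest at 0.97, and most neuronal lists and the myelin, choroid plexus and blood lists lie below, with red blood cell genes lowest at -1.60.

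Reactive astrocyte genes rose in both genotypes, 25 of 33 in WT (9.47% of all genes) and 30 of 33 in EZH2nHom (14.3% of all genes), where 1 fell. The median interaction was 0.64, with 31 above 0, 3 under the unadjusted threshold in the higher direction (3.69% of all genes) and 0 in the lower. Apart from Sphk1, these were Aspg and Aldh1l1. Aspg, an asparaginase, read 2.43, 4.82, 6.93, 7.26 and 3.60 CPM in WT kainate and 6.40, 15.8, 8.15 and 9.61 in EZH2nHom kainate, from 0.757 to 1.18 in WT saline and 0.621 to 0.973 in EZH2nHom saline, for an interaction of 1.25 ± 0.42. Aldh1l1, a folate enzyme that marks astrocytes, was at 85.7 to 153 and 132 to 166 CPM after kainate in WT and EZH2nHom, with 0.49 ± 0.20. The small heat shock protein Hspb1 (2.35 ± 1.14, interval -0.05 to 4.76) was another gene led by EZH2nHom kainate replicate 2, at 116 CPM, and its value without that library was 0.52. The list median was 0.31 without EZH2nHom kainate replicate 2 and 1.18 without WT kainate replicate 4. That last fit had 10 higher genes, and 5 to 7 were higher without EZH2nHom kainate replicate 1 or 3, WT kainate replicate 3 or WT saline replicate 5. Homeostatic astrocyte genes had 20 of 20 intervals within 1 log2 unit, 2 higher genes and a median of -0.01 that turned positive under the other scalings. The higher genes were Cbs (0.43 ± 0.14), an enzyme of transsulfuration, and the growth factor receptor Fgfr3 (0.46 ± 0.18). Both were lower in EZH2nHom than in WT after saline (-0.55 ± 0.10, adjusted p = 0.00106, and -0.46 ± 0.13, adjusted p = 0.019) and did not pass after kainate (-0.12 ± 0.11, adjusted p = 0.515, and 0.00 ± 0.13, adjusted p = 0.989).

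Microglial lists responded in both genotypes with no member that passed for a difference. Homeostatic microglial genes rose in 18 of 20 cases in WT (9.47% of all genes) and 17 of 20 in EZH2nHom (14.3% of all genes). Their median interaction was 0.32, with 0 genes under the unadjusted threshold in either direction. Without WT kainate replicate 4, 9 were higher. Activated microglial genes rose in 25 and 27 of 30 cases and had a median of 0.30, with 1 gene higher, the receptor tyrosine kinase Axl (0.61 ± 0.25), and 1 lower, the lipoprotein lipase Lpl (-0.69 ± 0.30), shares near those over all genes (3.69% and 5.07%). The higher genes numbered 10 without WT kainate replicate 4 and 0 without replicate 5 of that group or EZH2nHom kainate replicate 4. Complement genes had a median of 0.51, 0 higher and 1 lower: Cd55, an inhibitor of complement (-0.68 ± 0.28). Chemokines and cytokines had 0.56, with Ccl5 higher and Cxcl12 lower. Ccl5, a T cell attractant, had 0 reads in all 5 EZH2nHom saline libraries and 1 or 2 in WT saline, so no fold is given: its kainate levels were 0.277 to 1.84 CPM in WT and 1.22 to 4.22 in EZH2nHom. Cxcl12 fell in both genotypes, with changes of -0.57 ± 0.13 and -1.0 ± 0.15. Leukocyte and border macrophage genes, 13 of 23 measured, had a median of 0.50 and none under the unadjusted threshold. Single libraries set much of these 5 medians. Without EZH2nHom kainate replicate 4 they were between 0.04 and 0.12, except for chemokines, whose lowest was 0.36 without replicate 2 of that group. Without WT kainate replicate 4 they reached 0.63 to 0.97, except for leukocyte genes, whose highest was 0.68 without EZH2nHom kainate replicate 3. Leaving out WT kainate replicate 4 also gave 8 higher complement genes and 8 higher chemokines and cytokines, and without WT kainate replicate 3 there were 3 higher complement genes. Among libraries with Y-linked reads alone the medians were 0.0045 for homeostatic microglia, 0.04 for activated microglia, 0.23 for complement, 0.16 for chemokines and cytokines and 0.13 for leukocytes.

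**Figure D5:**
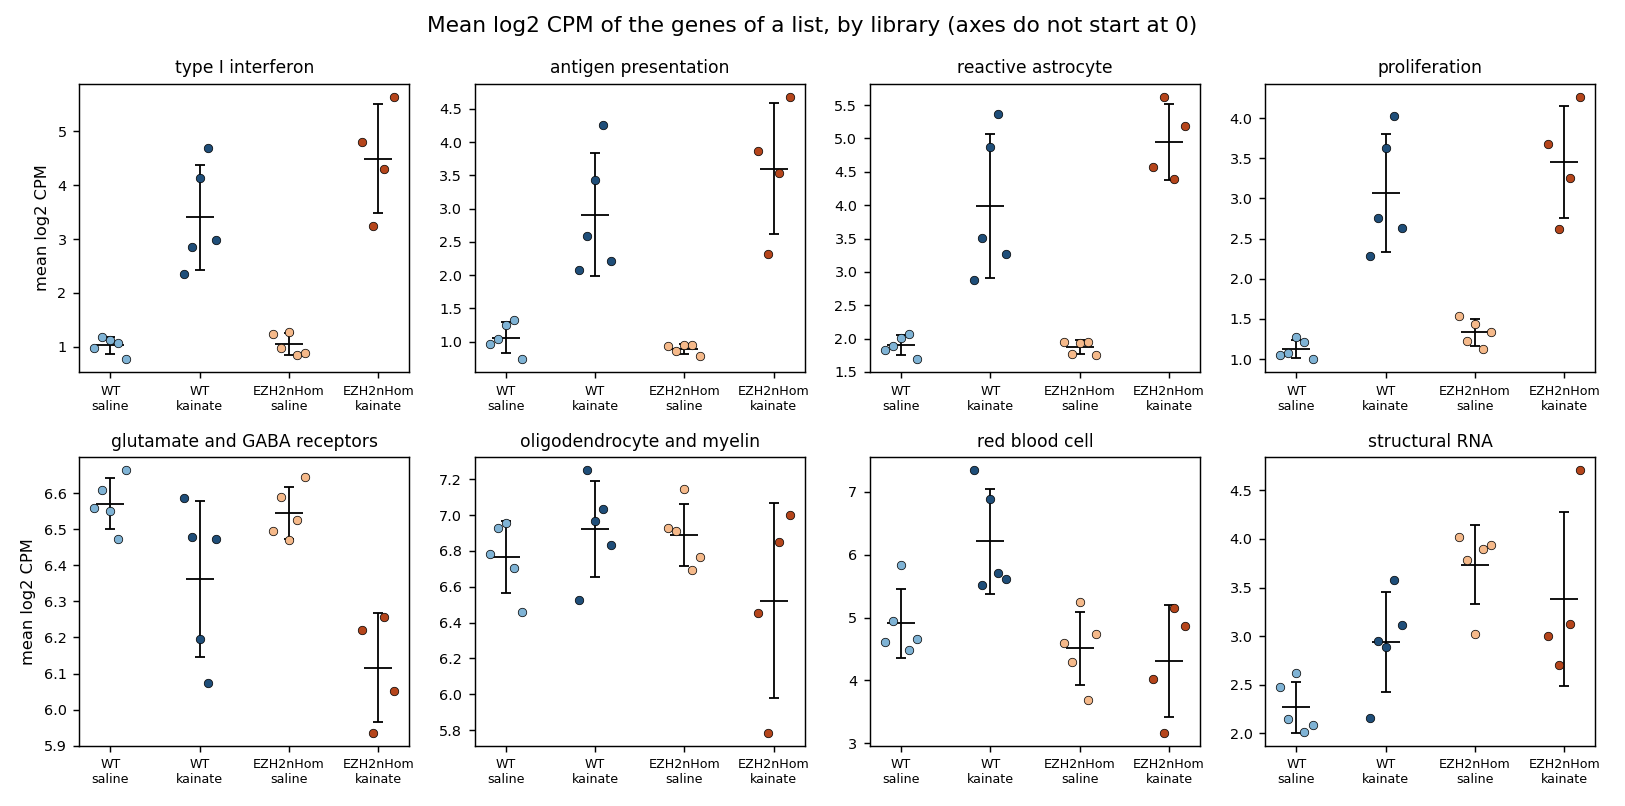
Mean log2 CPM of the members of 8 gene lists (y axes, which do not start at 0) in each library by group; points are libraries and bars the mean ± SD. The kainate groups of both genotypes spread and overlap for interferon, antigen presentation, reactive astrocyte and proliferation genes, EZH2nHom kainate replicate 2 is the lowest point for myelin genes, and red blood cell genes are high in WT kainate replicates 1 and 3.

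Proliferation genes rose alike in count, 31 of 34 in each genotype, with a median interaction of 0.13 and 0 members under the unadjusted threshold in either direction. The interval was within 1 log2 unit for 8 of them, so a moderate difference in cell division was not detectable, and the median changed sign without EZH2nHom kainate replicate 4 (-0.18) and among libraries with Y-linked reads (-0.07). Replication-dependent histones had a median of -0.22 with 0 under the threshold, and it ran from -0.76 without EZH2nHom kainate replicate 4 to -0.05 without replicate 2. Apoptosis and p53 genes rose in 9 of 27 cases in WT (9.47% of all genes) and 17 of 27 in EZH2nHom (14.3% of all genes), and 4 were higher for the interaction (3.69% of all genes), 0 lower, with a median of 0.17. The cell cycle inhibitor Cdkn1a read 5.75, 42.3, 8.82 and 9.99 CPM in EZH2nHom kainate, and its interaction of 1.52 ± 0.68 was 0.49 without replicate 2. Stress-induced Gadd45b had 0.87 ± 0.38, or 0.58 without that replicate, and the apoptosome scaffold Apaf1 0.39 ± 0.18, or 0.20. Inflammatory caspase Casp1 had 1.03 ± 0.47. Without that replicate 0 genes of the list were higher under the threshold, without replicate 1 of the group 9, without WT kainate replicate 5 1 gene, and without EZH2nHom saline replicate 2 or 4 2 genes each. The list median reached 0.37 without WT kainate replicate 4.

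Most neuronal lists had medians below 0, by small amounts. Of 36 glutamate and GABA receptor genes, 34 had an interaction below 0 and 7 were under the unadjusted threshold in the lower direction (5.07% of all genes), none in the higher. The median was -0.22, and the interval was within 1 log2 unit for 34 of 36. In WT 0 of 36 rose and 5 fell with kainate (2.57% of all genes fell), and in EZH2nHom 0 rose and 19 fell (11.8% of all genes). The AMPA receptor subunits Gria4 and Gria3 had -0.34 ± 0.14 and -0.50 ± 0.22. Gria3 was at 179, 202, 183, 154 and 194 CPM in WT saline and 203, 173, 129, 113 and 176 in WT kainate. Its values in EZH2nHom were 196, 209.6, 172, 167 and 235 CPM after saline and 145, 95.1, 133 and 109.9 after kainate. Every EZH2nHom saline library lay above EZH2nHom kainate and overlapped both WT groups, and the 95% interval of the Gria3 interaction was -0.95 to -0.05 (adjusted p = 0.538). The count of lower genes was 1 or 2 without any 1 of the 5 WT saline libraries or WT kainate replicate 1 or 2, and 3 or 4 without WT kainate replicate 5, EZH2nHom saline replicate 1 or 5 or EZH2nHom kainate replicate 2 or 4. The count was up to 10 otherwise, and the median nearest 0 was -0.12 without WT kainate replicate 1.

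Potassium, sodium and HCN channel genes had a median of -0.19 over 33 (-0.05 without WT kainate replicate 1), with 9 above 0 and 24 below. At the unadjusted threshold 0 were higher and 4 lower (3.69% and 5.07% of all genes): Kcnh7 (-0.68 ± 0.25), Scn2b (-0.54 ± 0.23), Kcnq5 (-0.61 ± 0.28) and Scn2a (-0.37 ± 0.17). Without WT kainate replicate 4 or EZH2nHom kainate replicate 2 there were 8 lower genes, and 0 to 2 without any other WT library but WT kainate replicate 3, or without EZH2nHom saline replicate 1, 2 or 5 or EZH2nHom kainate replicate 4. Scn2b, a sodium channel beta subunit, read 268, 254, 189, 183 and 283 CPM in WT kainate and 198, 93.7, 216 and 178 in EZH2nHom kainate, from 266 to 286 and 284 to 303 after saline, and its interaction was -0.34 without EZH2nHom kainate replicate 2. Inhibitory neuron genes had -0.21 over 27 with 3 lower, led by the interneuron transcript Dlx6os1 (-0.43 ± 0.15), which fell in both genotypes (-0.76 ± 0.10 and -1.19 ± 0.11). Of the 27, 9 were above 0 and 18 below, and their median was -0.07 without EZH2nHom kainate replicate 1. Pyramidal lists were close to these, at -0.21 over 13 CA1 genes with 0 under the threshold and -0.18 over 19 CA3 and CA2 genes with 2 lower. These were -0.12 without WT saline replicate 5 and -0.05 without WT saline replicate 1. Pcp4, a calmodulin regulator of CA2 cells, was at 97.1 to 114 CPM in EZH2nHom saline against 61.0 to 72.6 in WT saline, 50.1 to 59.9 in WT kainate and 50.8 to 67.8 in EZH2nHom kainate, and its interaction was -0.50 ± 0.12 (adjusted p = 0.408). Dentate granule cell genes had a median of 0.00 whose sign changed with the GC and length correction, 1 higher (Pdzd2, 0.41) and 1 lower (Stxbp6, -0.46). Immediate early genes had 0.11 over 32 (-0.02 without EZH2nHom kainate replicate 2), with Klf4 (1.42 ± 0.59) and Ier5 (0.47 ± 0.22) higher. Klf4 read 0.929, 6.38, 0.993 and 1.76 CPM in EZH2nHom kainate, and without replicate 2 its interaction was 0.40. Neuropeptide genes had -0.22 over 24 with 3 lower, led by Nxph1 (-0.62 ± 0.21), a median that was -0.01 without EZH2nHom saline replicate 5. The neuropeptide list was mixed, with 10 above 0 and 14 below, from -4.24 to 1.32. Adult neurogenesis genes had -0.23 over 22 with 4 lower, led by the neuronal tubulin Tubb3 (-0.46 ± 0.15) and the granule lineage factor Neurod1 (-0.61 ± 0.25). The neurogenesis median was -0.10 without WT kainate replicate 1.

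Oligodendrocyte and myelin genes had 11 of 24 members under the unadjusted threshold in the lower direction (5.07% of all genes) and 0 in the higher (3.69% of all genes), with a median of -0.53. Mal was at 374, 432, 448, 338 and 302 CPM in WT saline and 271, 484, 356, 389 and 360.4 in WT kainate. In EZH2nHom the values were 754, 558, 823, 439 and 538 CPM after saline and 264, 212, 419.9 and 400.5 after kainate. EZH2nHom saline lay above EZH2nHom kainate in all libraries and overlapped both WT groups. Mal had a kainate change of -0.94 ± 0.22 in EZH2nHom (adjusted p = 0.00333) against -0.02 ± 0.20 in WT (adjusted p = 0.959), with a 95% interval of the interaction of -1.53 to -0.31 (adjusted p = 0.447). The myelin proteins Mal and Mobp had -0.92 ± 0.29 and -0.69 ± 0.24, and the tetraspanin Tspan2 -0.64 ± 0.23. The list score was 6.45, 5.79, 6.85 and 7.0 in EZH2nHom kainate, 6.93, 6.91, 7.15, 6.70 and 6.77 in EZH2nHom saline, 6.53, 7.25, 6.96, 7.04 and 6.83 in WT kainate and 6.79, 6.93, 6.96, 6.71 and 6.46 in WT saline. EZH2nHom kainate replicate 2 was the lowest of all 19, and without it 5 genes were lower with a median of -0.38. The lower genes numbered 4 to 7 without WT saline replicate 1, 2, 4 or 5, WT kainate replicate 2 or 3, EZH2nHom saline replicate 2 or 3 or EZH2nHom kainate replicate 1, and up to 16 otherwise. Oligodendrocyte precursor genes had a median of -0.22 and 0 under the threshold (-0.36 without EZH2nHom kainate replicate 4 and -0.09 without WT saline replicate 4). Cholesterol synthesis genes had -0.26 over 25 with 3 lower, Sc5d (-0.35 ± 0.13), Idi1 (-0.51 ± 0.19) and Nsdhl (-0.41 ± 0.18), and 22 intervals within 1 log2 unit. Their median was -0.12 without EZH2nHom kainate replicate 1, with 0 lower genes, and -0.03 among libraries with Y-linked reads alone. There were 13 lower genes without EZH2nHom kainate replicate 3, 6 without WT kainate replicate 4 or EZH2nHom saline replicate 4, and 1 without WT saline replicate 2 or WT kainate replicate 3.

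Genes of mitochondrial and ribosomal function split. Of 13 genes of the mitochondrial genome, 5 were lower at the unadjusted threshold and 0 higher (5.07% and 3.69% of all genes). Their median was -0.19, and -0.01 without EZH2nHom kainate replicate 3. The list was mixed, with 5 interactions above 0 and 8 below, from -0.58 to 1.28. mt-Cytb, the cytochrome b of complex III, had the lowest p of the list. mt-Cytb was at 2383, 2192, 2206, 2087 and 1960 CPM in WT saline and 2370, 2081, 1911, 1885 and 2287 in WT kainate. In EZH2nHom it was at 4649, 4703, 3842, 3590 and 3771 CPM after saline and 3018, 2791, 2466 and 2567 after kainate. Every EZH2nHom saline library was above every other library. EZH2nHom exceeded WT by 0.92 ± 0.10 after saline (adjusted p = 5.87e-06) and by 0.36 ± 0.10 after kainate (adjusted p = 0.035), and the interaction was -0.56 ± 0.14 (95% interval -0.85 to -0.27, adjusted p = 0.418). The complex I subunits mt-Nd2 and mt-Nd1 had -0.58 ± 0.17 and -0.50 ± 0.18, and mt-Atp8 -0.54 ± 0.20. Nuclear genes of oxidative phosphorylation had a median of 0.03 (-0.03 without EZH2nHom kainate replicate 2), 34 of 34 intervals within 1 log2 unit, 1 higher and 2 lower, the complex III subunit Uqcrb (-0.36 ± 0.12) and the complex IV subunit Cox6c (-0.34 ± 0.14). Cytosolic ribosomal protein genes had 8 of 40 higher, 0 lower, 38 above 0 and a median of 0.14. Rpl9 was at 178 to 217 CPM in EZH2nHom saline, 178 to 294 in EZH2nHom kainate, 229 to 285 in WT saline and 221 to 243 in WT kainate. Rpl9, Rpl13 and Rps13 had 0.44 ± 0.15, 0.37 ± 0.13 and 0.48 ± 0.18. Without EZH2nHom kainate replicate 1 the list median was 0.30 with 22 higher genes. The median was 0.06 without replicate 2, and 5 genes were higher without replicate 4. Many ribosomal protein genes have processed pseudogene copies, so their counts are uncertain. Heat shock and chaperone genes had -0.19 over 21, with the constitutive chaperone Hspa8 lower (-0.33 ± 0.11) and its co-chaperone Bag3 higher (0.72 ± 0.34), and a median of -0.10 without WT kainate replicate 3.

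Subunits of PRC2 and its partners, 13 genes, had a median of 0.03 that was -0.12 without EZH2nHom kainate replicate 2, and 11 intervals lay within 1 log2 unit. Ezhip, an inhibitor of EZH2, was the 1 gene under the unadjusted threshold, with 0.451 to 0.657 CPM in WT saline, 0.186 to 0.48 in WT kainate, 0.148 to 0.456 in EZH2nHom saline and 0.185 to 0.653 in EZH2nHom kainate, values that overlap and rest on few reads (interaction 1.15 ± 0.55). The paralogue Ezh1, which can form PRC2 in resting cells, had -0.24 ± 0.15. Of 72 developmental factors known to be silenced by Polycomb in neurons, 15 passed the filter, with 7 interactions above 0 and 8 below. They ran from -2.97 to 2.41, and 2 were higher at the unadjusted threshold (3.69% of all genes) and 0 lower. The median was -0.13, or 0.15 without EZH2nHom saline replicate 5. The B cell factor Pax5 had 7, 8, 9, 6 and 7 reads in WT saline and 11, 7, 4, 7 and 10 in WT kainate. It had 2, 4, 1, 0 and 7 reads in EZH2nHom saline and 31, 8, 17 and 19 in EZH2nHom kainate, with an interaction of 2.41 ± 0.71. Gata2, a factor of blood and midbrain development, read 0.603, 2.75, 0.577 and 0.557 CPM in EZH2nHom kainate, and its 1.42 ± 0.57 became 0.50 without replicate 2.

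Markers of tissue outside the hippocampal parenchyma are given because some lay far from 0. Red blood cell genes had 5 of 7 members lower at the unadjusted threshold (5.07% of all genes) and the lowest median, -1.60. Hbb-bs, a beta globin, was at 142, 189, 408, 149 and 148 CPM in WT saline, 999, 296, 718, 305 and 346 in WT kainate, 182, 135, 219.7, 86.2 and 155 in EZH2nHom saline and 86.1, 60.1, 225 and 156 in EZH2nHom kainate. WT kainate replicates 1 and 3 were high, and the interaction was -1.60 ± 0.61 (interval -2.89 to -0.31). Closely related globin genes can share reads. The list median was -1.19 without WT kainate replicate 1, with 0 lower genes, and -0.99 among libraries with Y-linked reads alone. There were 2 lower genes without WT kainate replicate 3 or EZH2nHom kainate replicate 1, 3 without WT saline replicate 1, 4 or 5, EZH2nHom saline replicate 3 or EZH2nHom kainate replicate 2, and up to 6 otherwise. Choroid plexus and ependymal genes had a median of -1.19 with 18 of 18 below 0 and 0 under the threshold. Their score ran from 0.55 to 5.12 within WT saline and from 1.45 to 5.08 within EZH2nHom saline, and the median from -1.91 without EZH2nHom kainate replicate 3 to -0.77 without EZH2nHom saline replicate 4. Genes of hypothalamus, amygdala and septum had -0.78 over 19, with Nts (-0.78 ± 0.33), Irs4 (-1.92 ± 0.90) and Baiap3 (-1.5 ± 0.71) lower. The median was -0.24 without EZH2nHom saline replicate 5, which had the highest score of that list, 2.34. Neocortical genes had -0.39 over 18, with 5 lower, among them Pcp4, Foxp2 and Fezf2, and 1 higher, Ccn2, which read 14.1, 329, 19 and 12.4 CPM in EZH2nHom kainate and had an interaction of 2.88 ± 1.12, or 0.26 without replicate 2. Striatal genes had -0.32 over 15 with 0 under the threshold. The neocortical lower genes numbered 2 or 3 without WT saline replicate 1, 2, 3 or 5, WT kainate replicate 1 or 2, EZH2nHom saline replicate 5 or EZH2nHom kainate replicate 2. Their median was -0.19 without WT kainate replicate 1 and the striatal one -0.18 without WT saline replicate 4. Thalamus and habenula genes, with Slc17a6 among 3 lower, had -0.04, Cajal-Retzius cell genes -0.04 with 2 lower and meningeal genes -0.11 with 0, and each of these 3 medians changed sign with some library left out. Endothelial cell and pericyte genes had a median of -0.02 that turned positive with DESeq2's size factors, and the pericyte regulator Rgs5 was their 1 lower gene (-0.52 ± 0.20). Of 5 sex-linked genes, Xist was higher at the unadjusted threshold and 0 were lower. With a Y-linked covariate 868 genes were higher and 1079 lower at the unadjusted threshold, and 0 passed. The part of tissue composition in the other results was not tested.

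Structural RNAs had 16 of 16 interactions below 0, 3 of them under the unadjusted threshold (5.07% of all genes were lower). Their median was -0.81 and ran from -1.49 without EZH2nHom kainate replicate 4 to -0.53 without WT kainate replicate 4. Of these genes 11 were lower without EZH2nHom kainate replicate 4, 5 without WT kainate replicate 1, and 1 without EZH2nHom kainate replicate 1, 2 or 3, WT kainate replicate 4 or WT saline replicate 5. Rpph1, the RNA of ribonuclease P, was at 189, 193, 222, 148 and 376 CPM in WT saline, 263, 948, 1025, 864 and 1443 in WT kainate, 1425, 1397, 1446, 6930 and 5977 in EZH2nHom saline and 1141, 1089, 1860 and 6906 in EZH2nHom kainate. WT saline was low, 3 libraries of EZH2nHom stood at 5977 or above, and the interaction was -2.33 ± 0.88 (interval -4.18 to -0.48). Rn7s6, of the signal recognition particle family, and the neuronal transcript Bc1 had -1.11 ± 0.46 and -1.31 ± 0.60. With the share of structural RNA as a covariate, 704 genes were higher and 1172 lower at the unadjusted threshold, and 0 passed.

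By gene type, the interactions at the unadjusted threshold were uneven. Protein-coding genes gave 366 higher (2.39%) and 878 lower (5.74%) of 15306, with a median of -0.04. Models of the annotation's TEC class, loci that await experimental support, gave 241 higher (16.6%) and 9 lower (0.618%) of 1456, with a median of 0.50 and 1170 above 0. The TEC median was between 0.29 (without EZH2nHom kainate replicate 1) and 0.67 (without EZH2nHom kainate replicate 3) with each library left out. TEC genes had a median kainate change of -0.42 in WT and 0.07 in EZH2nHom, and a median difference of -0.48 between the genotypes after saline and 0.01 after kainate. TEC models held 0.229 to 0.309% of reads in WT saline, 0.156 to 0.239% in WT kainate, 0.164 to 0.209% in EZH2nHom saline and 0.132 to 0.28% in EZH2nHom kainate. Every WT saline library but 1 was thus above every WT kainate and EZH2nHom saline library. Such models often lie inside introns, so these counts can hold unspliced RNA of the host gene, which was not tested, and the strand setting of the counting is not given in the sources used here. Long non-coding RNAs gave 76 higher and 54 lower of 1679, and pseudogenes 23 and 22 of 648. Among protein-coding genes the median interaction lay between -0.03 and -0.04 in each of 4 classes of transcript length.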

How the data were processed

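RNA-seq libraries of mouse hippocampus were deposited as raw read counts per gene, whole numbers for 19 libraries, per the file headers and the values. A second deposited table holds the authors' normalised signal (counts divided by 1 size factor per library), a log2 fold change, a test score and p-values for a comparison its header does not name; only its gene symbols were used. Build mm39 and the tools DESeq2 and DESeq are named in the submitters' processing notes; the aligner, the counter, its strand setting and the annotation are not given in the sources used here. Symbols came from that table for 32313 genes and from the reference for 20022, and 3081 genes (0.0502% of reads) had none.

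Here genes were kept by edgeR's filterByExpr, scaled by TMM and fitted with 1 mean per group in edgeR's robust quasi-likelihood model (edgeR 4.0.16, R 4.3.3) over all libraries, which share 1 estimate of the spread. Values per library are CPM on TMM-scaled library sizes. P-values were adjusted by Benjamini-Hochberg over the 19234 genes, with a threshold of 0.05; unadjusted counts use 0.05 too. Intervals are 95% from the SE and the t distribution. Lists are described by counts and medians. List scores average log2 CPM with a prior count of 2. The scripts were tested on simulated data. Gene types and shared 32-base words were read from the reference transcripts, and promoters from RefSeq (GRCm38.p6), used for sequence only.

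Alternatives were DESeq2 size factors, DESeq2 1.42.0, limma 3.58.1 voom with sample weights, no filter, a stricter filter (1 CPM in 4 libraries, 16036 genes), an adjusted p of 0.1, replicate blocks, Y-linked and structural RNA covariates and each library left out. Further ones, libraries with Y-linked reads alone and a GC and length correction, were chosen after seeing the data. The genes named are Ezh2, the 10 lowest p-values per direction among annotated genes averaging at least 1 CPM, the 5 largest interactions per direction at an unadjusted p under 0.01, up to 4 members per list, genes that passed with 1 library left out and the panel of kainate-responsive genes. The comparison, the lists and the panel were chosen with earlier results of these data known. EZH2nHom kainate replicates are numbered as in the sample titles. Some items are not reported here. Counts summed to 24496685 to 43948317 per library, and their number limits the precision of low genes.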

Additional observations from a re-analysis of the deposited data

Results flagged for a closer look

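Within groups of 4 or 5, a library was called apart when its gap to the nearest other, divided by the group's range, passed Dixon's 95% critical value. This held for 13 of 196 groups of gene levels and 10 of 168 groups of list scores, and chance alone flags about 1 in 20. In CPM, these were Lars2 in EZH2nHom kainate replicate 2 (8.07, others 13.2 to 13.9), Psmb10 in EZH2nHom saline replicate 2 (6.83, others 9.66 to 10.3) and Sphk1 in EZH2nHom kainate replicate 2 (28, others 1.48 to 1.9). Others were Plin4 in WT kainate replicate 4 (7.3, others 1.84 to 3.24), Plin4 in EZH2nHom kainate replicate 2 (44.5, others 3.81 to 3.99) and Pim1 in EZH2nHom kainate replicate 2 (37.1, others 2.84 to 6.04). Further values were D830030K20Rik in EZH2nHom saline replicate 5 (0.921, others 0 to 0.0593), ENSMUSG00000119584 in WT saline replicate 1 (327, others 455 to 500) and ENSMUSG00000119584 in EZH2nHom kainate replicate 2 (2450, others 132 to 252). There were also Gfap in EZH2nHom saline replicate 5 (259, others 330 to 358), Calb1 in WT saline replicate 4 (92.5, others 118 to 121) and Rtl3 in EZH2nHom kainate replicate 1 (0.603, others 0.234 to 0.257). The list went on with Nptx2 in EZH2nHom saline replicate 5 (20.2, others 11.6 to 13.7). In mean log2 CPM of a list, these were astrocyte homeostasis in EZH2nHom kainate replicate 2 (7, others 7.51 to 7.61), homeostatic microglia in EZH2nHom saline replicate 4 (4.37, others 4.49 to 4.51) and potassium, sodium and HCN channels in EZH2nHom kainate replicate 4 (5.69, others 5.93 to 5.96). Others were neuropeptides and granins in WT saline replicate 3 (3.12, others 3.31 to 3.35), neuropeptides and granins in EZH2nHom saline replicate 5 (4.16, others 3.38 to 3.53) and oligodendrocyte precursor in EZH2nHom kainate replicate 2 (3.69, others 4.98 to 5.15). Further values were nuclear oxidative phosphorylation in WT kainate replicate 5 (6.88, others 6.66 to 6.71), leukocyte and border macrophage in WT saline replicate 3 (0.131, others -0.419 to -0.296) and structural RNA in EZH2nHom saline replicate 3 (3.02, others 3.79 to 4.02). There were also sex-linked in EZH2nHom kainate replicate 1 (-1.32, others 3.68 to 4.4). The causes of these values were not tested.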

How the results depend on the processing

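With edgeR and all libraries 0 genes passed, against 1685 at an unadjusted p under 0.05; at an adjusted p of 0.1 there were 0 too. DESeq2's Wald test passed 3 higher and 9 lower genes, a replicate block within genotype 1 higher gene (D830030K20Rik, 5.44, adjusted p = 0.0399), and leaving out 1 library 0 to 2 higher and 0 to 2 lower. Genes at the unadjusted p numbered 553 to 1254 higher and 418 to 1484 lower with 1 library left out. They were 1420 higher and 1788 lower under voom with sample weights, 1221 higher without a filter and 336 lower in libraries with Y-linked reads; the cause was not tested. Under a replicate block across all groups they were 656 higher and 1153 lower, within genotype 656 and 1118, and by description number 551 and 748. Same-numbered saline and kainate libraries correlated over 0.1 in 5 of 5 WT pairs (0.221 to 0.571) and in 3 of 4 EZH2nHom pairs by title (-0.035 to 0.19). By description number this held for 2 of 4 EZH2nHom pairs (-0.121 to 0.209). Same-numbered saline libraries of WT and EZH2nHom also correlated over 0.1 in 4 of 5 pairs (0.073 to 0.565), so such correlation was not particular to saline and kainate pairs. Code prefixes that occur in both arms were found for 6 WT libraries and 0 EZH2nHom libraries. The bar of 0.1 in every pair was thus met in WT and missed in EZH2nHom, so the fit without the block was kept as the main one, and both are given.

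Signs turned for Ezh2 under voom (0.1171), a replicate block by description number (0.0248), a Y-linked covariate (0.0009) and the GC and length correction (0.0024), for Mki67 under voom (0.30), for Calb1 under voom (0.0677) and the block within genotype (0.0224), and for Cst7 in libraries with Y-linked reads (-0.39). With 1 library left out, interactions were -0.14 to 0.1007 for Ezh2, -0.17 to 0.0875 for Calb1, -0.0749 to 1.09 for Cst7, -0.58 to 0.0441 for Mki67, -0.27 to 0.42 for Npy, -0.0005 to 0.40 for Bdnf and -0.0183 to 1.49 for Tgm1, and the direction of the other single genes recomputed held. List medians moved by more than the spread of the list's score in 13 leave-one-out and 16 other fits, and by less in 804 and 500. Intervals of Tgm1 and Cst7 span several log2 units. After saline they had 0 to 3 and 0 to 10 reads per library, and within WT kainate they ran from 1.66 to 128.8 and from 1.84 to 20.7 CPM. Which of these made the intervals wide was not tested.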
